A study of Mus musculus with 3 samples.

Results

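The genes of MHC class I antigen presentation were examined in primary epidermal keratinocytes of neonatal mice. The set comprised 10 genes, the heavy chains H2-K1 and H2-D1, the light chain B2m, the peptide transporter and its adaptor Tap1, Tap2 and Tapbp, the immunoproteasome subunits Psmb8, Psmb9 and Psmb10, and the regulator Nlrc5. A probe set was included when the platform annotation gave it exactly 1 gene symbol and that symbol was one of these. All 10 genes were found among the 18193 genes with such a probe set, and they had 27 of the 34945 probe sets with 1 symbol.

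Class I molecules carry peptides cut from proteins of the cytosol to the cell surface, where CD8+ T cells read them. The proteasome cuts the peptides, the TAP transporter carries them into the endoplasmic reticulum, and tapasin holds the transporter next to empty class I molecules until a peptide is bound. Interferon-gamma is known to raise most of these genes together and to replace the constitutive catalytic subunits of the proteasome by the immunoproteasome subunits, and keratinocytes are among the cells that respond in this way.

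RNA of 2 RASSF9-/- mice and of 1 WT mouse was measured, with 1 culture plate and 1 Affymetrix Mouse Genome 430 2.0 array per mouse, called RASSF9-/- array 1, RASSF9-/- array 2 and the WT array. All mice were of the outbred ICR strain. The RASSF9-/- mice came from a single line that is homozygous for a transgene of Epstein-Barr virus LMP1, whose insertion removed part of the first intron of Rassf9, so the loss of Rassf9, the transgene and anything else particular to the line cannot be told apart. The study described the transcript of the transgene in the skin as inefficiently expressed and, elsewhere, as not detectable, and its protein as not detectable. The labels give a culture time of 48 h for RASSF9-/- cells and 24 h for WT cells, whereas the methods give a single time for all, and if the labels hold, genotype and culture time cannot be told apart. RASSF9-/- array 1 and the WT array carry the same array date, and RASSF9-/- array 2 carries another.

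The deposited MAS5 signals are intensities on a linear scale with a trimmed mean of 500 on every array. The medians were 99 and 81.7 on RASSF9-/- arrays 1 and 2, and 90.8 on the WT array. Hybridization controls, which read RNAs added to each sample, were 1.354 and 1.147 times as bright on RASSF9-/- arrays 1 and 2 as on the WT array. Control probe sets for Bacillus subtilis genes, which have no target in mouse RNA, reached 78.4, and a signal under this limit is called not above background here. Rassf9 had 59.6 and 120.2 on RASSF9-/- arrays 1 and 2, against 478.1 on the WT array, which is at least 4.93-fold lower because RASSF9-/- array 1 was under the limit (fitted log2 fold change -2.50, SE 0.67, adjusted p = 0.530, limma). Its second probe set had 68.2 and 76.7 on RASSF9-/- arrays 1 and 2, both under the limit, against 340.4 on the WT array. The position of its probes with respect to the deleted stretch was not determined. The keratins of basal keratinocytes were bright on all arrays, as Krt14 had 38752.3 and 38300.2 on RASSF9-/- arrays 1 and 2 and 38140.1 on the WT array. Krt15, another basal keratin, was not above background on any array.

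In the RefSeq table of GRCm38.p6, 7 of the genes lie on chromosome 17, where Psmb9, Tap1, Psmb8 and Tap2 follow each other as consecutive protein-coding genes between H2-K1 and H2-D1. Psmb10 and Nlrc5 lie on chromosome 8 and B2m lies on chromosome 2. RefSeq promoter windows, from 250 bases before the start site to 50 bases from it on, were found for 8 of the 10 genes. The windows of H2-K1 (chr17:34000298-34000597, minus strand), H2-D1 (chr17:35262844-35263143, plus strand) and B2m (chr2:122147437-122147736, plus strand) are shown because these genes encode the 2 parts of the class I molecule and had nearly the same pattern over the arrays. The stretch of 275 bases common to the windows of Psmb9 and Tap1 (chr17:34187306-34187580, plus strand) is shown because these genes are read from it in opposite directions, Tap1 along the strand printed, and had unlike values on the arrays. Capitals mark matches to the kappa B consensus, to the interferon regulatory factor core AANNGAAA and to TGACG, part of the site of CREB-type factors, each on either strand.
H2-K1: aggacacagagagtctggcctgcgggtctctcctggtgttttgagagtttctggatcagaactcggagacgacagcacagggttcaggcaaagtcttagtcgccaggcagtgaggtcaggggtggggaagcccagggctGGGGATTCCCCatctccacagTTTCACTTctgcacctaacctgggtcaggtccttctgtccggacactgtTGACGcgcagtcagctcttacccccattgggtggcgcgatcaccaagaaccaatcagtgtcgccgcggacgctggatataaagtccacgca
H2-D1: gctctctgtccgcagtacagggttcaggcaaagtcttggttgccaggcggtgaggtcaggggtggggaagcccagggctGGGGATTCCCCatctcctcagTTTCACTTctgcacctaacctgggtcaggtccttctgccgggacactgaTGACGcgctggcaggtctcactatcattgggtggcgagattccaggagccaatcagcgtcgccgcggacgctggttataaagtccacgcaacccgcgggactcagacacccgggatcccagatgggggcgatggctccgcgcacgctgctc
B2m: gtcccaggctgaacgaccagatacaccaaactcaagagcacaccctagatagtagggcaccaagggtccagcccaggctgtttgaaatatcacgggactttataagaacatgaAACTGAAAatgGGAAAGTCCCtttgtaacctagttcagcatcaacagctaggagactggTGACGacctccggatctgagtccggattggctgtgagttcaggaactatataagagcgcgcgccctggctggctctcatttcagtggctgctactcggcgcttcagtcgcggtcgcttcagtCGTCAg
Psmb9 and Tap1, shared: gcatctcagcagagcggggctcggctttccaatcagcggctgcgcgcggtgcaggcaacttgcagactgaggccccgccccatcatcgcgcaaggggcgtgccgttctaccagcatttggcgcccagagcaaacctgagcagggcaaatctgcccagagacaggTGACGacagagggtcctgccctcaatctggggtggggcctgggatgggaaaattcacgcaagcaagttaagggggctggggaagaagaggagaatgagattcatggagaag

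The H2-K1 and H2-D1 windows were identical at 211 of 239 aligned bases (88.3%). The first capitals in both are a kappa B stretch, followed by an interferon regulatory factor core on the opposite strand, and B2m has the core first and the kappa B stretch second. Of the 8 genes with a window, 3 (H2-K1, H2-D1 and B2m) had a kappa B match, against 4.51% of all 32851 windows, and the same 3 had the AANNGAAA core, against 23.9%. TGACG was found in the windows of 5 genes, against 20.8% of all windows, and the CCAAT box in those of 6 genes, against 37.4%. Psmb9 and Tap1 enter both counts with the same bases of their common stretch, so the genes are not separate observations. TTCNNNGAA, a palindrome bound by STAT factors, was found in the window of Psmb8, against 8.3% of all windows. The Psmb10 window had no match to any of the 5 motifs. No match overlapped that of another motif. These matches describe letters in the windows and nothing was measured at them.

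By their brightest probe sets, all 10 genes had their highest signal on RASSF9-/- array 1, whereas RASSF9-/- array 2 was above the WT array for only 4 of them. Those were the immunoproteasome subunits Psmb8, Psmb9 and Psmb10 and the transporter subunit Tap2. The heavy chains and B2m were about equally bright on RASSF9-/- array 2 and the WT array. None of the 9 genes tested passed at an adjusted p of 0.05, a threshold passed by 0.0812% of the 11089 genes tested in the higher direction and by 0% in the lower direction. Psmb8 and Psmb10 had an unadjusted p under 0.05 in the higher direction, as did 3.11% of all genes. Psmb8 and Psmb9, with WT signals of 47.7 and 57.5, passed the filter on low signals only through their RASSF9-/- arrays. With signals under the background limit raised to it for all genes, the adjusted p of Psmb8 by limma was 0.967. That of Psmb10, whose signals were all above the limit, was also 0.967.

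The count of 10 of 10 genes highest on RASSF9-/- array 1 stood against 35.2% of all genes tested, and 38.9% with no filter on low values. The 10 include Nlrc5, which was not tested, and H2-K1 and H2-D1, whose brightest probe sets can bind related transcripts. The set was chosen with earlier results of these data known, so the count is a description and not a test. On RASSF9-/- array 1, 7 of the 10 were at least 1.5-fold above each of the other arrays, against 6.36% of all genes. The 4 genes above WT on both RASSF9-/- arrays compare with 33.6% of all genes, and the 0 genes lower on both with 32.7%. At least 2-fold higher on both were 2 genes, Psmb8 and Psmb10, against 2.89% of all genes. Psmb8 enters this count, and Psmb8 and Psmb9 the count of 4, after passing the filter only through their RASSF9-/- arrays. Neither count is therefore a test of the set. The median difference from the WT array was 0.91 on the log2 scale on RASSF9-/- array 1 and -0.05 on RASSF9-/- array 2, against 0.05 and -0.04 over all genes tested. Both differences are taken from the same single WT array, so they are not independent of each other. RASSF9-/- array 1 alone, which has the date of the WT array, put 10 genes above WT and 4 of them at least 2-fold. RASSF9-/- array 2 alone put 4 and 2 there, with WT signals taken as deposited. By the medians over all genes, more genes tested lay above than under WT on RASSF9-/- array 1, and more under than above on RASSF9-/- array 2. The shares of all genes on a single array were not counted, so these counts have no background beside them. On RASSF9-/- array 2, the array with the other date, single genes ranged from 0.71 times WT (Tapbp) to 4.73 times (Psmb8, WT under the background limit). The part of the array date in these values was not tested. Hybridization controls were brightest on RASSF9-/- array 1, as the class I genes were. When each array was divided by its hybridization controls, 9 of the 10 genes were still highest on RASSF9-/- array 1, against 12.1% of all genes, and after division by the array medians 9 were, against 20.5%, with Tapbp the exception in both.

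**Figure D1:**
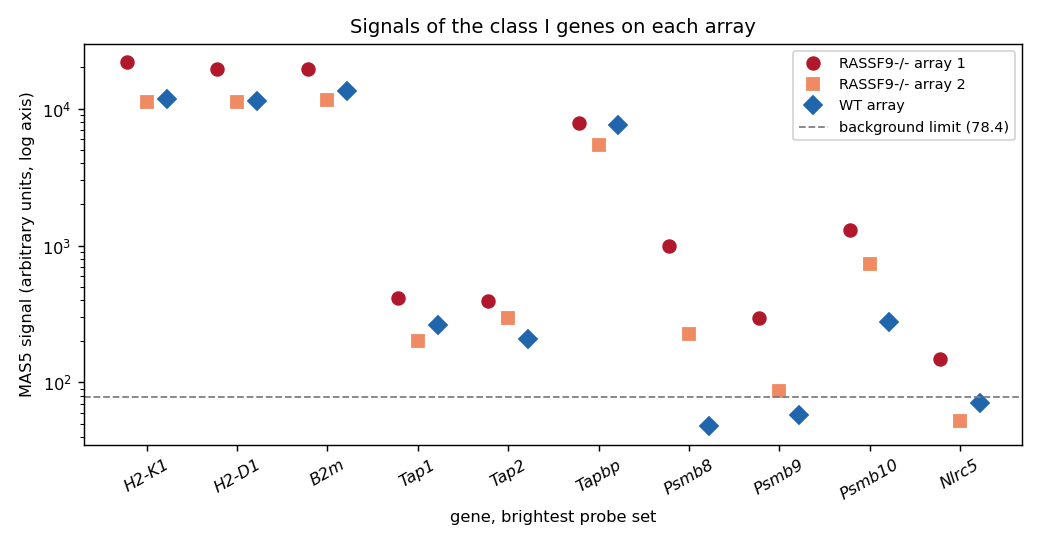
MAS5 signal, on a log axis, of the brightest probe set of each of the 10 class I genes on RASSF9-/- array 1 (circles), RASSF9-/- array 2 (squares) and the WT array (diamonds), with 1 mouse per point. The circle is the highest point for every gene, and the WT diamonds of Psmb8, Psmb9 and Nlrc5 lie under the dashed background limit of 78.4.

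The heavy chains present the peptide, and both were bright on all arrays and brightest on RASSF9-/- array 1. H2-K1 had 21860.8 and 11215.5 on RASSF9-/- arrays 1 and 2, against 11836 on the WT array. RASSF9-/- array 1 was thus 1.95-fold above RASSF9-/- array 2 and 1.85-fold above the WT array, with RASSF9-/- array 2 slightly under WT. The log2 fold change of RASSF9-/- over WT was 0.40 (SE 0.45, adjusted p = 0.9996), which is smaller than the spread between the RASSF9-/- arrays. H2-D1 had 19378.1 and 11203.9 on RASSF9-/- arrays 1 and 2, against 11411.8 on the WT array. Its log2 fold change was 0.37 (SE 0.41, adjusted p = 0.9996), so that H2-D1 repeated the order of H2-K1. Whether RASSF9-/- array 2 lay above or under the WT array for these genes turned with the scaling, since division by each array's median gave log2 differences of 0.07 for H2-K1 and 0.13 for H2-D1, against -0.08 and -0.03 in the deposited scale.

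H2-K1 was read by 4 probe sets and H2-D1 by 9. The other H2-K1 probe sets had 13949.1, 2783.6 and 467.2 on RASSF9-/- array 1 and 7907.1, 1680.4 and 262.1 on RASSF9-/- array 2, against 8172, 1762.4 and 412.8 on the WT array. All 4 were highest on RASSF9-/- array 1 and none was above WT on RASSF9-/- array 2. Of the H2-D1 probe sets, 4 were above background on every array and 2 on none. The next 2 of these 4 by brightness had 17058.6 and 3798.1 on RASSF9-/- array 1 and 9812 and 2487.6 on RASSF9-/- array 2, against 10353.3 and 2617.3 on the WT array, the same order again. The fourth differed, with 1145.7 and 1192.8 on RASSF9-/- arrays 1 and 2, against 797.2 on the WT array, which is 0.52 and 0.58 above WT on the log2 scale. The other 3 were above background on some arrays only. The first had 151.4 and 77.3 on RASSF9-/- arrays 1 and 2, against 71.3 on the WT array. The others were highest on the WT array, with 90.7 and 40.2 on RASSF9-/- arrays 1 and 2 against 93.2 for one, and 18 and 45.2 against 124.6 for the other. The fourth of the probe sets above background on every array carries no suffix for shared probes, whereas the 3 brighter H2-D1 probe sets and all of H2-K1 are marked by the manufacturer as able to bind related transcripts. Class I genes are nearly identical in sequence and vary between outbred mice, so the share of each gene in these signals is uncertain.

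B2m, the invariant light chain without which class I molecules do not stay folded, had the pattern of the heavy chains. Its brighter probe set had 19578 and 11634.4 on RASSF9-/- arrays 1 and 2, against 13360.6 on the WT array. The other had 20083.8 and 10040.9 on RASSF9-/- arrays 1 and 2, against 11062.2 on the WT array. On both probe sets RASSF9-/- array 1 was the highest and RASSF9-/- array 2 was under WT, and the log2 fold change of the brighter was 0.18 (SE 0.40, adjusted p = 0.9996).

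**Figure D2:**
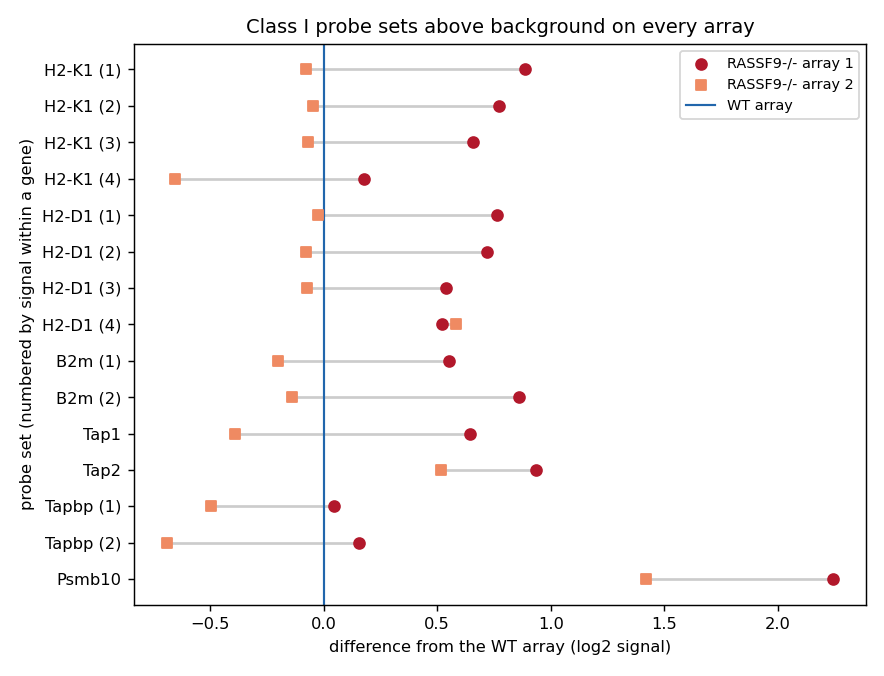
Difference from the WT array, in log2 signal, on RASSF9-/- array 1 (circles) and RASSF9-/- array 2 (squares) for the 15 class I probe sets above background on every array, numbered by signal within a gene. The circle lies to the right of the square for 14 of the 15, the exception being the fourth H2-D1 probe set, and both symbols lie to the right of WT for 3.

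The peptide transporter is a pair of Tap1 and Tap2, and its subunits were unlike each other on RASSF9-/- array 2. Tap1 had 410 and 200.2 on RASSF9-/- arrays 1 and 2, against 262.3 on the WT array, a log2 fold change of 0.13 (SE 0.62, adjusted p = 0.9996). The RASSF9-/- arrays lay on opposite sides of WT, and the other 3 Tap1 probe sets were not above background on any array. Tap2 had 393.4 and 294 on RASSF9-/- arrays 1 and 2, against 205.7 on the WT array. Both RASSF9-/- arrays were above WT, 1.91- and 1.43-fold, and the log2 fold change was 0.73 (SE 0.52, adjusted p = 0.9996). Tapbp, which encodes tapasin, had 7878.1 and 5418.4 on RASSF9-/- arrays 1 and 2, against 7641.5 on the WT array, and its second probe set had 923.8 and 515.3 against 830.5. RASSF9-/- array 1 was close to WT and RASSF9-/- array 2 was under it on both, with a log2 fold change of -0.23 for the brighter (SE 0.36, adjusted p = 0.9996).

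The immunoproteasome subunits had the highest values over WT in the set, and all 3 were above WT on both RASSF9-/- arrays. Psmb10 replaces Psmb7 in the immunoproteasome and was above background on every array. It had 1300.9 and 736 on RASSF9-/- arrays 1 and 2, against 274.8 on the WT array. This is 4.73- and 2.68-fold above WT, a log2 fold change of 1.83 (SE 0.51, adjusted p = 0.549). Psmb8, which replaces Psmb5, had 990.2 and 225.4 on RASSF9-/- arrays 1 and 2, against 47.7 on the WT array. The WT signal was not above background, so the RASSF9-/- mean was at least 6.03-fold higher, with a fitted log2 fold change of 3.31 (SE 0.91, adjusted p = 0.542). RASSF9-/- array 1 was also 4.39-fold above RASSF9-/- array 2. The second Psmb8 probe set had 105 and 10.7 on RASSF9-/- arrays 1 and 2, against 1.8 on the WT array, and only RASSF9-/- array 1 was above background. Psmb9, which replaces Psmb6, had 295 and 86.4 on RASSF9-/- arrays 1 and 2, against 57.5 on the WT array. RASSF9-/- array 2 was just over the background limit and WT was under it, so the RASSF9-/- mean was at least 2.04-fold higher, with a fitted log2 fold change of 1.47 (SE 0.87, adjusted p = 0.9996). With arrays divided by their hybridization controls, Psmb8, Psmb9 and Psmb10 were still above WT on both RASSF9-/- arrays.

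Leukocytes carry the immunoproteasome without stimulation, and their markers were read as well. Of 9 leukocyte and macrophage markers, 7 were above WT on both RASSF9-/- arrays, against 33.6% of all genes tested. After division by the hybridization controls 5 were, against 13.2%. Ptprc, Coro1a, Tyrobp and Fcer1g, among the 7, were under the background limit on RASSF9-/- array 2 and the WT array. These arrays have no order for them. The summed signal of the 9 was 2790.1 and 2975.5 on RASSF9-/- arrays 1 and 2, against 1826.7 on the WT array. Csf1r, the receptor of a macrophage growth factor, had 791.8 and 1685.7 on RASSF9-/- arrays 1 and 2, against 784.4 on the WT array, by its brightest probe set. Its others had 265.2 and 599.6, against 352.7, and 272.8 and 347.9, against 259.8. With all 9 markers the sum was thus highest on RASSF9-/- array 2. Csf1r was then left out after its values were seen. The sum without it was 1998.3 and 1289.8 on RASSF9-/- arrays 1 and 2, against 1042.3 on the WT array. Within that sum Cd14 had 882 and 472.1 on RASSF9-/- arrays 1 and 2, against 370.8 on the WT array. Cd68 had 350.8 and 407, against 394.7. The median difference of the 9 markers from the WT array was 1.25 and 0.35 on the log2 scale on RASSF9-/- arrays 1 and 2. Ptprc and Coro1a, which leukocytes in general express, were not above background on any array. Laptm5, a lysosomal protein of blood cells, had 246.7 and 131.8 on RASSF9-/- arrays 1 and 2, against 62.1 on the WT array by its brightest probe set, whereas another had 66.6 and 57.9 against 119.6. Tyrobp and Fcer1g, signalling adaptors of myeloid cells, had 136.7 and 142.1 on RASSF9-/- array 1, and were not above background on RASSF9-/- array 2 (60.3 and 20.9) or the WT array (48.9 and 15.2). The part of such cells in the values of the class I genes was not tested, and in bulk RNA fewer cells of a type and less RNA per cell cannot be told apart. Of 9 Langerhans and dendritic cell markers, 6 had no probe set above background on any array, Cd207 among them with 11.8 and 5.8 on RASSF9-/- arrays 1 and 2 and 14.1 on the WT array. The summed signal of these 9 was 1024 and 342.2 on RASSF9-/- arrays 1 and 2, against 826 on the WT array. The 4 T cell markers on the array summed to 174.3 and 76.2 on RASSF9-/- arrays 1 and 2, against 135.6 on the WT array, and none exceeded 82.3 on any array.

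The constitutive catalytic subunits that the immunoproteasome subunits replace did not have the pattern of the class I genes. Psmb7 had 16551.4 and 18575.2 on RASSF9-/- arrays 1 and 2, against 15229.5 on the WT array. Psmb5 had 6514.6 and 8146.6 on RASSF9-/- arrays 1 and 2, against 6449.9 on the WT array. Psmb6 had 5813 and 6590.4 on RASSF9-/- arrays 1 and 2, against 5169.2 on the WT array. All 3 were above WT on both RASSF9-/- arrays by small amounts, all were highest on RASSF9-/- array 2, and their median log2 fold change was 0.20, with an adjusted p of 0.9996 each. After division by the hybridization controls 0 of the 3 were above WT on both RASSF9-/- arrays and their median was -0.11, so their direction turned with the scaling.

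**Figure D3:**
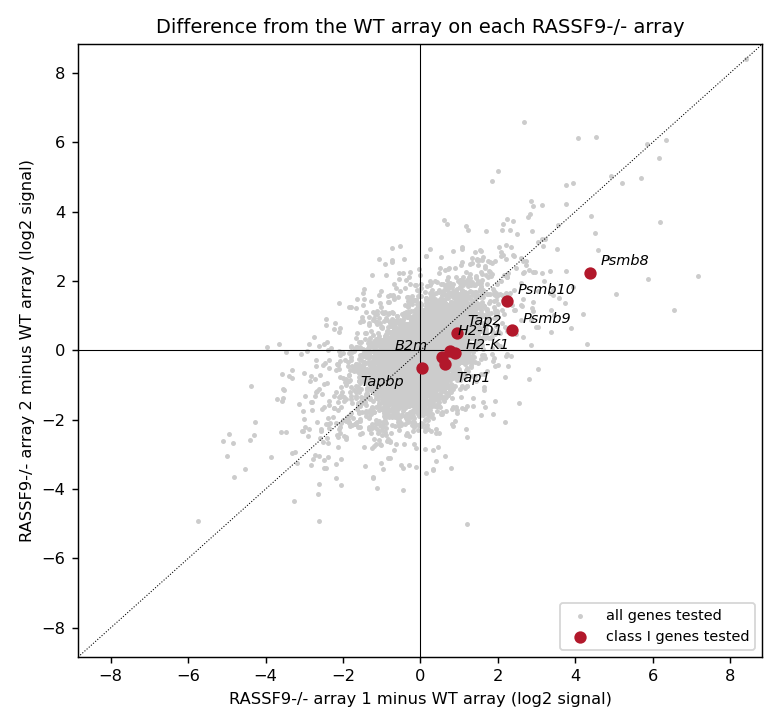
Difference from the WT array in log2 signal on RASSF9-/- array 1 (x axis) and RASSF9-/- array 2 (y axis) for the 11089 genes tested (grey) and the 9 class I genes among them (red). All 9 lie under the dotted line of equal differences and to the right of 0, and Psmb8, Psmb9, Psmb10 and Tap2 are above 0 on both axes. Both axes share the WT array.

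Nlrc5, the transactivator of class I promoters, had 148.3 and 51.9 on RASSF9-/- arrays 1 and 2, against 70.3 on the WT array. Only RASSF9-/- array 1 was above background, and its mean over arrays was too low for it to be tested. RASSF9-/- array 2 and the WT array were both under the limit and have no order. Of 15 other regulators of class I transcription listed, 13 had a probe set of 1 symbol. By the brightest probe sets 4 of these were above WT on both RASSF9-/- arrays (33.6% of all genes tested). Under it on both were 3 (32.7%), and 6 were mixed. None of the 12 tested passed. Irf1, an interferon-induced activator of these promoters, had 3122.8 and 1330.1 on RASSF9-/- arrays 1 and 2, against 1029.3 on the WT array, a log2 fold change of 0.99 (SE 0.56, adjusted p = 0.9996). Irf8, a factor of myeloid cells, was not above background on any array. Rfxank, a subunit of the RFX complex, had 312.3 and 295.6 on RASSF9-/- arrays 1 and 2, against 254.5 on the WT array, by its brightest probe set. Its others had 259.8 and 91.8, against 190.5, and 114.1 and 60.1, against 127.8, so its direction depends on the probe set. Nfyb, a CCAAT-binding subunit, had 612.1 and 666.4 on RASSF9-/- arrays 1 and 2, against 753.2 on the WT array, by its brightest probe set. Its other probe set had the opposite direction, with 364.5 and 352.8 against 331.4. The median log2 fold change of the 13 was 0.03, against -0.01 over all genes tested. By array their median difference from WT was 0.30 and -0.08 on RASSF9-/- arrays 1 and 2, against 0.05 and -0.04 over all genes tested.

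Of 15 interferon, receptor and kinase genes, 12 had a probe set of 1 symbol. Above WT on both RASSF9-/- arrays were 3 (33.6% of all genes tested), under it on both were 4 (32.7%), and 5 were mixed. The interferon genes measured, Ifng and Ifnb1, were not above background on any array. Ifng had 36 and 2.5 on RASSF9-/- arrays 1 and 2 and 4.8 on the WT array, and Ifnb1 had 60.2 and 61.1 on RASSF9-/- arrays 1 and 2 and 30.1 on the WT array. Ifngr1, the ligand-binding chain of the interferon-gamma receptor, had 719.3 and 632.9 on RASSF9-/- arrays 1 and 2, against 562 on the WT array. Il10rb, a chain shared with the interferon-lambda receptor, had 1450.3 and 1306.5 on RASSF9-/- arrays 1 and 2, against 1687.1 on the WT array. Socs1, an inhibitor induced by interferon, had 63.4 and 56.6 on RASSF9-/- arrays 1 and 2, against 83.2 on the WT array, with only WT above background. The median log2 fold change of the 12 was 0.02, and none of the 9 tested passed. By array their median difference from WT was 0.31 and -0.40 on RASSF9-/- arrays 1 and 2. As deposited, 11 of the 12 were higher on RASSF9-/- array 1 than on RASSF9-/- array 2, as were 6080 of the 11089 genes tested. Ifng and Socs1, among the 11, were under the limit on both of these arrays.

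Among the partners of peptide supply and loading, 7 of the 11 genes measured were above WT on both RASSF9-/- arrays, against 33.6% of all genes tested. Under it on both were 2, against 32.7%, and 2 were mixed, with none passing the test. After division by the hybridization controls 1 of the 11 was above WT on both, against 13.2% of all genes. The median log2 fold change of the 11 was 0.27, and -0.05 after that division. Tapbpl, a relative of tapasin that edits the bound peptide, had 701.4 and 609.4 on RASSF9-/- arrays 1 and 2, against 364.9 on the WT array, a log2 fold change of 0.84 (SE 0.44, adjusted p = 0.9996). Pdia3, the disulfide isomerase of the loading complex, had 3370 and 4320.9 on RASSF9-/- arrays 1 and 2, against 2642 on the WT array. The chaperone Canx had 9879.6 and 9065.2 on RASSF9-/- arrays 1 and 2, against 7605.2 on the WT array, by its brightest probe set. Its others had 2706.3 and 2415.9, against 2052.1, and 433.8 and 309.3, against 443.9. Psme3, a proteasome activator of the nucleus, had 1307.5 and 1778.8 on RASSF9-/- arrays 1 and 2, against 1126.1 on the WT array, by its brightest probe set. Another had 680.5 and 1058.3, against 964.7, with RASSF9-/- array 1 under WT. Pdia3 and Psme3 were highest on RASSF9-/- array 2, unlike every class I gene by its brightest probe set. Of the 11 partners, 6 were highest on RASSF9-/- array 1, against 35.2% of all genes tested. So were 7 of the 13 regulators and 7 of the 12 interferon, receptor and kinase genes. Psme1 and Erap1, named after their values were seen, had the order of the heavy chains. Psme1, a subunit of the interferon-induced proteasome activator, had 5323.4 and 2580.3 on RASSF9-/- arrays 1 and 2, against 2821.9 on the WT array. Erap1, the peptidase that trims peptides in the endoplasmic reticulum, had 1199.7 and 488.3 on RASSF9-/- arrays 1 and 2, against 636.9 on the WT array.

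MHC class II genes, which present peptides taken up from outside the cell, were mostly near background. Of the 10 measured, 1 was above WT on both RASSF9-/- arrays (33.6% of all genes tested) and 5 were under it on both (32.7%). The other 4 were mixed, and 3 of the 10 were not above background on any array. The members with the largest difference in a shared direction were H2-Oa, H2-Eb2, Ciita and H2-Eb1, and each was not above background on both RASSF9-/- arrays and reached no more than 94.1 on the WT array. H2-Ab1, named after its values were seen, had 513.8 and 83.5 on RASSF9-/- arrays 1 and 2, against 421.5 on the WT array. RASSF9-/- array 1 was thus slightly above WT and RASSF9-/- array 2 near background.

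**Figure D4:**
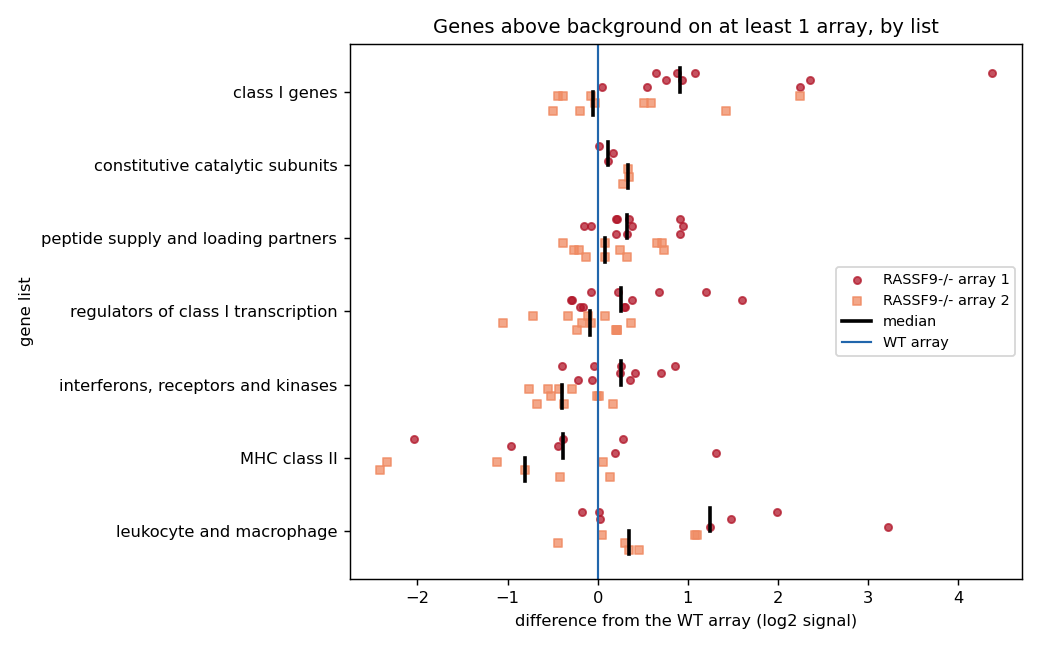
Difference from the WT array in log2 signal on RASSF9-/- array 1 (circles) and RASSF9-/- array 2 (squares) for the genes of each list that were above background on at least 1 array, with the median as a black bar. The class I genes have medians of 0.91 and -0.05 on RASSF9-/- arrays 1 and 2, and the constitutive catalytic subunits have 0.12 and 0.34.

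Other cell types in the cultures varied between arrays as well, and their part in the class I values was not tested. The summed signals of 8 keratinocyte markers were 101300 and 121768 on RASSF9-/- arrays 1 and 2, against 125856 on the WT array. The basal transcription factor Trp63, among them, had 1459.9 and 1542.9 on RASSF9-/- arrays 1 and 2, against 3239.3 on the WT array. Those of 6 melanocyte markers were 24140.6 and 33894.7 on RASSF9-/- arrays 1 and 2, against 28209.6 on the WT array. Those of 7 fibroblast markers were 1267.4 and 922.3 on RASSF9-/- arrays 1 and 2, against 1683.4 on the WT array, and those of 5 endothelial markers were 279.5 and 372.6, against 278.5.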

How the data were processed

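RNA of primary keratinocytes was hybridized to Affymetrix Mouse Genome 430 2.0 arrays. The authors deposited the intensity of each probe set as a MAS5 signal on a linear scale, with a mean of 500 on each array once 2% was trimmed at either end. Detection calls and images were not used here. The study's methods name GeneSpring and t-tests.

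Signals were taken to log2 with no further normalization and no pseudocount. Of 45037 probe sets that are not controls, 34945 have exactly 1 symbol in the platform annotation, 932 have several and 9160 have none. Probe sets whose mean log2 signal was under the 50th percentile (a signal of 82.75) were not tested, and the brightest was kept per gene, which left 11089 genes and 9 of the 10 class I genes. limma 3.58.1 (R 4.3.3; lmFit, then eBayes with an intensity trend) tested RASSF9-/- against WT, two-sided, with Benjamini-Hochberg adjustment over all of them. A gene was called when its adjusted p was under 0.05. The 1 residual degree of freedom comes from the RASSF9-/- mice, beside 5.31 prior ones, so WT is assumed to vary as they do, and no term for array date could be fitted. With 3 arrays, their number limits the precision. The test was checked on data simulated with the same spread in WT and RASSF9-/- and no effect of array date. That check therefore cannot address the assumption about WT or the array date.

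The background limit of 78.4 is the highest signal that 27 Bacillus subtilis controls reached on any array. Where a group lay under it, signals were raised to it and the geometric mean of RASSF9-/- over WT is a lower bound. A summed signal adds the brightest probe set of each gene. Members, lists and this limit were chosen with earlier results of these data known. Every class I probe set is accounted for. Of each other list up to 4 genes are named, those with the largest value of the smaller difference among genes moved the same way on both RASSF9-/- arrays; markers, interferons and genes said to be named after their values were seen are exceptions. Promoter windows are from RefSeq (GRCm38.p6), read in Python 3.11.15 and aligned with Biopython 1.88. Alternatives were other scalings and filters, a pseudocount of 32, the background limit as a floor, other ways of joining probe sets, limma without the trend, the methods' t-test, fold thresholds of 1.5 and 3, leaving out each RASSF9-/- array and, chosen after seeing the data, division by the 18 hybridization controls.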

Additional observations from a re-analysis of the deposited data

How the results depend on the processing

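None of the class I genes tested passed the adjusted threshold under any alternative, and their adjusted p ranged from 0.182 to 0.9998. The median log2 fold change of the class I genes was positive under every alternative to the processing, 0.39 as reported and from 0.07 to 0.43 otherwise. By array it was 0.91 without RASSF9-/- replicate 2 and -0.05 without RASSF9-/- replicate 1, so its direction rests on RASSF9-/- array 1. Leaving out 1 RASSF9-/- array, the count above WT ranged from 4 to 10 and the count at least 2-fold above WT from 2 to 4. At a 3-fold threshold 1 gene, Psmb8, was left on both arrays with its WT signal taken as deposited. The shares of all genes on a single array and at 3-fold were not counted. With each array divided by its hybridization controls, the median of all genes moved to -0.33, B2m turned to -0.14 and Tap1 to -0.19. Division by the array median put 6 class I genes above WT on both RASSF9-/- arrays (32.6% of all genes) and left 9 highest on RASSF9-/- array 1 (20.5%). The count of all genes called higher, 9 as reported, was 0 with quantile normalization, with the background limit as a floor, without the intensity trend and by the methods' t-test after adjustment, 5 with a filter at the 75th percentile, 5 with a pseudocount of 32, 255 by the methods' t-test without adjustment and 14 with hybridization controls. The count called lower, 0 as reported with 270 at an unadjusted p under 0.05 by limma, was 1 after division by the median, 1 with every probe set as its own entry, 234 by the methods' t-test without adjustment and 9 with hybridization controls. The cause of these shifts was not tested. No paired analysis was possible because WT has a single array, so the groups share fewer than 2 replicate numbers. With 2 arrays against 1, small differences in either direction could not be told from the spread between arrays.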

Other observations

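Of 20 non-classical class I genes listed, 9 had a probe set of 1 symbol. The 4 with the largest difference in a shared direction, H2-Q10, H2-T24, H2-Q5 and H2-Q2, were not above background on any array. The others are named here after their values were seen. H2-M3, which presents formylated peptides, had 379 and 111 on RASSF9-/- arrays 1 and 2, against 104.8 on the WT array. H2-Bl had 317.3 and 215.7 on RASSF9-/- arrays 1 and 2, against 392.6 on the WT array, and Mr1, which presents vitamin metabolites, had 196.6 and 79.7, against 227.8. Cd1d1, which presents lipids, had 342.7 and 93.1 on RASSF9-/- arrays 1 and 2, against 295.5 on the WT array. The 2 probe sets of H2-T3 were unlike each other, the brighter by mean log2 signal with 96.8 and 83 on RASSF9-/- arrays 1 and 2, against 94.1 on the WT array, and the other with 161.9 and 84.4 on RASSF9-/- arrays 1 and 2, against 12.9 on the WT array, where it was not above background. None of the 5 genes tested passed, and H2-M3, Cd1d1 and the brighter probe set of H2-T3 were highest on RASSF9-/- array 1.

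Probe sets that the annotation gives to several genes were outside the set. The one shared by H2-K1 and H2-D1 had 6429.3 and 3463.2 on RASSF9-/- arrays 1 and 2, against 3335.8 on the WT array, which is 1.93- and 1.04-fold above WT. The one shared by H2-Q5 and H2-K1 had 533.5 and 47.4 on RASSF9-/- arrays 1 and 2, against 103.5 on the WT array.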
